A study of Mus musculus with 4 samples.

Results

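The non-canonical Wnt ligands and receptors described here were 9 genes, taken by symbol from the 32285 genes of the deposited count matrices. They comprised the ligands Wnt5a, Wnt5b and Wnt11, the receptors and co-receptors Ror1, Ror2, Ryk and Ptk7, and the membrane proteins Vangl1 and Vangl2. All 9 symbols were found. Single-cell RNA sequencing had been performed on molar tooth organs of wild-type C57BL/6J mice at the embryonic stage E15.5, which the sample labels write as E15, and on postnatal day 1 (P1), where the protocol names pups of P0/P1. Maxillary and mandibular molars were dissociated separately, which gave 4 libraries without any transgene or treatment. Each library was made from 6 tooth organs pooled in 1 tube, so that no group had a biological replicate.

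Wnt ligands of the non-canonical branches act without beta-catenin. In the planar cell polarity (PCP) branch, Wnt5a or Wnt11 binds Frizzled receptors together with the receptor tyrosine kinase-like proteins Ror1 and Ror2, and the membrane proteins Vangl1 and Vangl2 relay the signal to the cytoskeleton. Ryk and Ptk7 are catalytically inactive receptor tyrosine kinase family members that bind Wnt ligands or their receptors. In a calcium branch, the signal passes through calcium-dependent kinases and NFAT transcription factors. In developing teeth, these pathways are known for roles in growth of the tooth germ and in the polarisation of ameloblasts, which secrete enamel, and odontoblasts, which secrete dentin.

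The deposited matrices held 10885 and 7947 barcodes for the E15.5 maxillary and mandibular molars, and 18707 and 19401 barcodes for the P1 maxillary and mandibular molars. Their total counts of unique molecular identifiers (UMIs, each standing for 1 captured transcript) ranged from 86659227 to 139873101. After filtering, 8395, 6059, 13760 and 8158 cells remained, in the order E15.5 maxillary, E15.5 mandibular, P1 maxillary and P1 mandibular, and the same order is kept below wherever 4 values are given. The median cell held 9888, 11595, 3950.5 and 11016 UMIs. Neither the 9 genes nor other Wnt pathway genes took part in the clustering, which was run library by library, and a cluster was given the name of a cell type with the ending "-like" from marker genes. The number of classes with at least 50 cells was 19, 13, 21 and 19. The level of a gene is the sum of its UMIs divided by all UMIs of the class and scaled to 1e+06 (CPM), with an exact Poisson 95% interval where shown. A difference is a log2 ratio of 2 such levels with its exact 95% interval. It is called past the fold when it reached 2-fold with an interval that excluded 0 and the 2 sums held at least 20 UMIs. Neighbours in an order of levels are called apart when the interval of their log2 ratio excluded 0. These orders cover only classes with a cell type name. In 4 of 36 pairs of a gene and a library a class without such a name stood above the first of them, with Ror1 at 428 CPM in other mesenchyme of E15.5 mandibular molars, Ryk at 232 CPM in 108 other epithelial cells of E15.5 maxillary molars, and Ror2 at 268 CPM and Ptk7 at 78.6 CPM in other mesenchyme of E15.5 maxillary molars. In another 4 such a class stood between the first and the second. With 1 library for each stage and jaw there is no test, and every interval covers counting error only. UMIs are sums over cells of 1 pooled library, so fewer expressing cells and less RNA in each cell are not separated by a level. Outside erythroid-like cells 88 ratios of the 9 genes were past the fold, of which 43 stayed beyond 2-fold in every setting of the processing that could form them, and 45 did not.

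Several features of the libraries bear on all that follows. The P1 libraries had 7131 barcodes in common, against 28 to 70 for the other pairs of libraries. These barcodes were left out of the P1 mandibular library. In the P1 maxillary library, the 5825 cells with such a barcode (the shared set) had a median of 12233 UMIs and included 2818 dental papilla-like cells. The 7935 others (the unshared set) had a median of 2530 UMIs, and 1299 of them were facial mesenchyme-like cells with Alx1 and Pax3. Alx1, a transcription factor gene of the facial midline, was at 0.343 CPM in the mesenchyme of the shared set and at 154 CPM in that of the unshared set. In the mesenchyme of the 4 libraries Alx1 was at 15.9, 11.7, 27.6 and 7.52 CPM, so the shared set was below the P1 mandibular level. Pou3f3, checked with Alx1 as a maxillary gene, was at 24.7 and 24.4 CPM in these sets and at 8.94 CPM in P1 mandibular mesenchyme. Hand2, a mandibular transcription factor gene, was at 1.51, 21.8, 0.0595 and 8.79 CPM in the mesenchyme of the 4 libraries. In that of the shared and unshared sets it was at 0.0723 and 0 CPM. Dlx5 and Dlx6, checked as mandibular genes too, differed in direction between the jaws at P1. Dlx5 was at 30.1, 36.3, 139 and 116 CPM in the 4 libraries, and at 166 and 14.7 CPM in the sets. Dlx6 was at 13.95, 21.5, 17.03 and 21.8 CPM, and at 20.04 and 3.02 CPM in the sets. Over all cells with the shared barcodes left out of the P1 mandibular library, Hand2 was at 0.698 CPM and Dlx5 at 122 CPM. Values for P1 maxillary molars are given over both sets, and values by set stand beside many of the ratios described below. Whether the barcodes in common mark cells of 1 sample in both P1 libraries, and which of the sets is the labelled tissue, cannot be told apart from these matrices, and this bears on every P1 value of the maxillary molars and on each comparison of the jaws at P1.

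The labelled tissue was checked against markers. At P1, Amelx, encoding the main enamel matrix protein, was at 52463 and 56640 CPM in the ameloblast-like cells of the maxillary and mandibular molars, and Dspp, encoding a dentin matrix protein, was at 372 and 1160 CPM in the odontoblast- or osteoblast-like cells. Dspp was higher in ameloblast-like cells, at 2858 CPM in the 1 maxillary cluster and from 1429 to 2826 CPM in 4 mandibular clusters, and over the epithelium it was at 344 and 715 CPM, against 33.4 and 124 CPM over the mesenchyme. Its level alone therefore did not set the odontoblast- or osteoblast-like cells apart. Barx1, a molar mesenchyme transcription factor gene, was at 681, 687 and 532 CPM in the papilla-like cells of the E15.5 maxillary, P1 maxillary and P1 mandibular molars. The E15.5 mandibular library held only 94 epithelial cells, 28 of them dental epithelium-like, and no papilla-like class, so comparisons of tooth epithelium and papilla between stages rest on the maxillary molars. Erythroid-like cells, taken to lack 8 of the 9 genes, were used as a rough gauge of free RNA, and their highest level for any of the 8 was 7.65, 2.57, 9.71 and 12.8 CPM in the 4 libraries. Vangl1 was at 7.27, 7.28, 5.36 and 6.81 CPM in erythroid-like cells and at 1.39, 0.722, 0.626 and 0.552 CPM in macrophage-like cells, and in E15.5 mandibular erythroid-like cells it had 88 UMIs beside 3 UMIs of Vangl2. The erythroid-like level is therefore no measure of free RNA for Vangl1, and the macrophage-like level, from 1 to 3 UMIs, is given in its place. For other genes too the gauge was uneven. In P1 mandibular molars erythroid-like cells held more RNA of other cell types than macrophage-like cells did, with Col1a1 at 337 and 107 CPM and Krt14 at 55.9 and 11.6 CPM, and Wnt5a was at 11.2 against 2.76 CPM (interval 0.897 to 6.44) and Ryk at 12.8 against 4.97 CPM. In P1 maxillary molars Ror1 was at 9.71 CPM in erythroid-like and, from 1 UMI, at 0.626 CPM (interval 0.0158 to 3.49) in macrophage-like cells. A level below the erythroid-like one is therefore not shown to be free RNA.

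Ror1 and Ror2, paralogous receptors for Wnt5a, were low in different secretory cell classes, described below, and their proximal promoters are shown for that reason. Ror1 lies on chromosome 4 (GRCm38, chr4:100095791-100444765, plus strand) and Ror2 on chromosome 13 (chr13:53109312-53286124, minus strand). The 250 bases upstream of the annotated start, from RefSeq GRCm38.p6, are given 5′ to 3′ on the strand of the gene. Capitals mark the GC box GGGCGG or its reverse complement CCGCCC, and the Runx core TGTGGT or its reverse complement ACCACA.
Ror1, chr4:100095541-100095790: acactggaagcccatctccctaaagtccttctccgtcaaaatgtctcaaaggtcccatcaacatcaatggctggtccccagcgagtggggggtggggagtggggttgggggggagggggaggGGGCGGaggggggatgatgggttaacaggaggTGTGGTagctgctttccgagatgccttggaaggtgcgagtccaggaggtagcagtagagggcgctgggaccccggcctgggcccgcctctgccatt
Ror2, chr13:53286125-53286374: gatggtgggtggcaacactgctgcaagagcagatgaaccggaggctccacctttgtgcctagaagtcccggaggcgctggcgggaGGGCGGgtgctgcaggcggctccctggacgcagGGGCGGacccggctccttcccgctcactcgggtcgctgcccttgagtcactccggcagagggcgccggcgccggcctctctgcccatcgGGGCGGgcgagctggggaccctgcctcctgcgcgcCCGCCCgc
The Ror2 promoter had a GC content of 73.2% with 24 CpG dinucleotides and 4 GC boxes. The Ror1 promoter had a GC content of 62.4% with 8 CpG dinucleotides, 1 GC box and 1 Runx core. Of the 32851 annotated promoters of the same length, 32.7% held a GC box and 14.0% a Runx core on either strand. The letters TATAAA (in 12.4% of promoters) and TAATTA (in 4.84%) were searched on both strands too and were in neither window. These matches describe the sequence only.

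Wnt5a, the ligand best known for non-canonical signalling (chr14:28504750-28527448, plus strand), was highest in follicle-like cells, the mesenchyme that surrounds the tooth and forms its attachment. Their level was 280, 343, 252 and 390 CPM. In 3 of the 4 libraries this was apart from the class next in order, and in P1 maxillary molars it overlapped that of the Alx1 and Pax3 facial mesenchyme-like cells at 246 CPM. Papilla-like cells, the core of the tooth that becomes the pulp, stood lower, at 176 CPM in E15.5 maxillary, 116.5 CPM in P1 maxillary and 132 CPM in P1 mandibular molars. Odontoblast- or osteoblast-like cells at P1 held 136 and 144 CPM. Mesenchyme contributed 95.9%, 92.2%, 87.0% and 75.5% of all Wnt5a UMIs of the kept cells. Of the UMIs of all genes, it held 54970154 of 91445821, 41146708 of 76712684, 67246726 of 102225360 and 59948027 of 96382353. In the epithelium, basal oral epithelium-like cells at P1 reached 128 and 228 CPM, against 10.3 CPM in E15.5 maxillary molars. Ameloblast-like cells, at 4.08 and 5.81 CPM, did not exceed the erythroid-like cells of their libraries, at 4.35 and 11.2 CPM, while macrophage-like cells were at 1.88 and 2.76 CPM.

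Wnt5b, the closest relative of Wnt5a (chr6:119432531-119544347, minus strand), had its highest level outside the tooth proper in 3 of the 4 libraries. Gland-like epithelium led in maxillary molars, with 72.3 CPM in the E15.5 library and 68.2 CPM in the P1 library, the latter not apart from fibroblast-like cells at 54.7 CPM. In E15.5 mandibular molars, chondrocyte-like cells at 58.6 CPM and tendon-like cells at 56.7 CPM were not apart. Odontoblast- or osteoblast-like cells led in P1 mandibular molars with 47.3 CPM (interval 42.1 to 53.0), apart from the Alx1 and Pax3 facial mesenchyme-like cells next in order but not from the follicle-like cells at 31.6 CPM (interval 20.5 to 46.7) or the few pericyte-like cells, and held 40.2 CPM in P1 maxillary molars. The papilla-like cells had 20.1 and 23.9 CPM in P1 mandibular and maxillary molars. The leading class of Wnt5b thus differed from that of Wnt5a in all 4 libraries. In P1 mandibular molars, however, the class leading for Wnt5b was not apart from the follicle-like cells, which led for Wnt5a.

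Wnt11, a ligand known from convergent extension (chr7:98835112-98855195, plus strand), was sparse, with 520 to 1123 UMIs in the kept cells of a library. Alx1 and Pax3 facial mesenchyme-like cells held 41.2, 4.10, 29.4 and 19.8 CPM and follicle-like cells 16.9, 27.7, 24.6 and 43.0 CPM. One or the other led in every library, in P1 maxillary molars without being apart from tendon-like cells at 29.0 CPM. Papilla-like cells held 22.6 CPM in E15.5 maxillary molars but 3.58 and 4.34 CPM at P1. No Wnt11 UMI was found in the ameloblast-like cells of either P1 library.

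**Figure D1:**
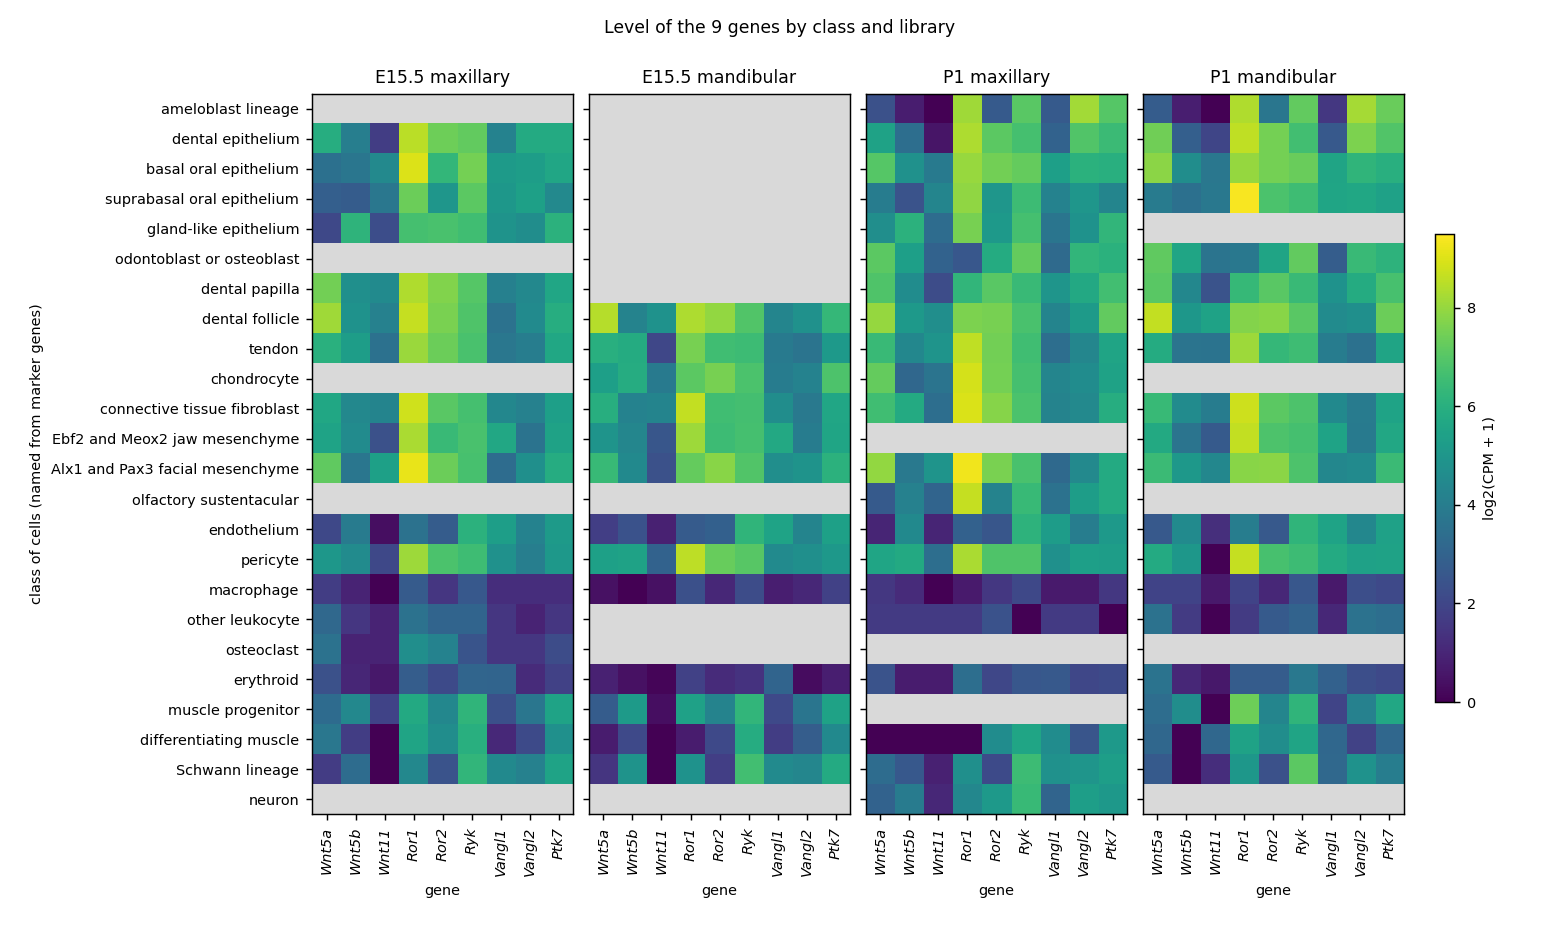
Levels of the 9 genes by cell class in the 4 libraries, as log2(CPM + 1) in colour, with genes in columns and classes in rows. Grey fields are classes with under 50 cells. Wnt5a is highest in the follicle-like row of each library, and Vangl2 in the ameloblast-like row at P1.

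Ror1 was expressed in most mesenchymal and epithelial classes, with 14737 to 29863 UMIs in a library. Its leading class differed between libraries and was apart from the next in 3 of 4. Connective tissue fibroblast-like cells held 450, 396, 501 and 442 CPM, and Alx1 and Pax3 facial mesenchyme-like cells 578, 153, 624 and 223 CPM. Suprabasal oral epithelium-like cells led in P1 mandibular molars with 671 CPM, against 239 CPM in P1 maxillary and 163 CPM in E15.5 maxillary molars. Dental epithelium-like cells held 363 CPM in E15.5 maxillary molars and 323 and 387 CPM at P1, and ameloblast-like cells 286 and 331 CPM. Endothelium-like cells stayed between 5.67 and 15.4 CPM. The odontoblast- or osteoblast-like cells stood below the papilla- and follicle-like cells of their libraries, with 5.01 CPM (interval 3.35 to 7.19) in P1 maxillary and 13.0 CPM in P1 mandibular molars. Erythroid-like cells had 9.71 and 5.72 CPM in these libraries. Ror1 lies across 348975 bases and the same strand carries Gm12701 within it, so reads could in part be shared between these genes.

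Ror2 was measured at high levels in the mesenchyme around and within the tooth, and in facial mesenchyme and fibroblasts. Follicle-like cells held 191, 247, 188 and 222 CPM, and papilla-like cells 205 CPM in E15.5 maxillary and 133 and 134 CPM in P1 maxillary and mandibular molars. Papilla-like cells led in E15.5 maxillary molars without being apart from follicle-like cells, and Alx1 and Pax3 facial mesenchyme-like cells led in P1 mandibular molars with 230 CPM, likewise not apart. In P1 maxillary molars, connective tissue fibroblast-like cells led with 220 CPM (interval 209 to 232), apart from the Alx1 and Pax3 facial mesenchyme-like cells at 192 CPM. In epithelium, dental epithelium-like cells had 167 CPM at E15.5 in the maxilla and 137.5 and 180 CPM at P1, and basal oral epithelium-like cells 77.7 CPM at E15.5 in the maxilla and 177 and 184 CPM at P1. The ameloblast-like cells held 5.44 and 12.4 CPM, beside 3.01 and 5.72 CPM in erythroid-like cells.

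Ryk (chr9:102834917-102908305, plus strand) was measured in all mesenchymal and epithelial classes described here. Basal oral epithelium-like cells led in 3 libraries, with 180 CPM in E15.5 maxillary molars and 154 and 160 CPM at P1, and only the E15.5 value was apart from the class next in order. In E15.5 mandibular molars, pericyte-like cells at 131 CPM led without being apart from the next. At P1, odontoblast- or osteoblast-like cells held 152 and 147.5 CPM and papilla-like cells 86.2 and 86.3 CPM. Leukocyte-like and macrophage-like cells were at or below 7.29 CPM. The same strand carries Gm47427 within Ryk, so that reads could in part be shared here too.

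Ptk7 (chr17:46564471-46629504, minus strand), a co-receptor of the PCP branch, differed in its leading class between the stages. Follicle-like cells were first or second among the named classes in every library. At P1, follicle-like cells led with 146.7 and 162 CPM and ameloblast-like cells came next with 125 and 160 CPM, not apart from them. In E15.5 mandibular molars, chondrocyte-like cells at 113 CPM were apart from follicle-like cells at 78.6 CPM, but P1 mandibular molars held no chondrocyte-like class. In E15.5 maxillary molars, gland-like epithelium at 68.0 CPM and follicle-like cells at 59.6 CPM overlapped.

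The paralogs Vangl1 (chr3:102153583-102204693, minus strand) and Vangl2 (chr1:172000960-172028444, minus strand), core PCP proteins, had different leading classes in all 4 libraries. Vangl1 was highest in jaw mesenchyme-like cells with Ebf2 and Meox2 at E15.5, with 50.7 CPM in the maxilla and 52.0 CPM in the mandible, the latter not apart from endothelium-like cells. At P1, basal oral epithelium-like cells at 39.65 CPM in the maxilla and pericyte-like cells at 54.3 CPM in the mandible led without being apart from the next. It was at 39.2, 44.8, 37.1 and 44.7 CPM in endothelium-like cells. Papilla-like cells held 16.7 CPM at E15.5 in the maxilla and 29.6 and 27.7 CPM at P1. It was lower in dental epithelium-like cells at P1 (6.94 and 5.25 CPM), odontoblast- or osteoblast-like cells (8.64 and 5.93 CPM) and ameloblast-like cells (5.44 and 1.94 CPM). Of these 6 intervals, those of both odontoblast- or osteoblast-like values and of the maxillary dental epithelium-like value lay above the interval of the macrophage-like cells of the same library (0.0158 to 3.49 and 0.0140 to 3.08), and the other 3 overlapped it.

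Vangl2 was led at P1 by the ameloblast-like cells, at 289 CPM (interval 262 to 318) in maxillary and 300.1 CPM (interval 287 to 314) in mandibular molars. Among the other named classes, dental epithelium-like cells were next at 120 and 197 CPM and then odontoblast- or osteoblast-like cells at 74.4 and 85.6 CPM, each apart from the named class above it. Epithelial cells without a cell type name held Vangl2 at 179 CPM (interval 170 to 188; 550 cells) in maxillary and 144 CPM (interval 135 to 152; 480 cells) in mandibular molars, above the dental epithelium-like level in the maxilla and below it in the mandible. At E15.5, dental epithelium-like cells led in the maxilla with 54.5 CPM, not apart from the suprabasal oral epithelium-like cells at 40.8 CPM. In E15.5 mandibular molars, where no dental epithelium class of 50 cells was present, the order was led by mesenchyme, with Alx1 and Pax3 facial mesenchyme-like cells at 28.7 CPM not apart from follicle-like cells at 26.8 CPM. Epithelium contributed 27.1%, 12.1%, 42.8% and 58.9% of the Vangl2 UMIs. Of the UMIs of all genes, epithelium held 12008715 of 91445821, 2449618 of 76712684, 18327676 of 102225360 and 23285605 of 96382353. The Vangl2 shares thus depend on how much epithelium each library held as well. Across all 36 pairs of a gene and a library, the highest level among the named classes was in a mesenchymal class in 23. This count is given without a share over all genes or the number of mesenchymal classes ranked. It therefore shows no preference of these genes for mesenchyme. With unnamed classes, the Ptk7 lead in E15.5 maxillary molars would pass from gland-like epithelium (68.0 CPM) to other mesenchyme (78.6 CPM). The other pairs with an unnamed class on top would keep their compartment.

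In P1 maxillary molars, several of these levels differed between the shared and the unshared set of a class. Follicle-like cells held Wnt5a at 267 CPM in the shared and 172 CPM in the unshared set, Ptk7 at 162 and 63.3 CPM and Ror1 at 174 and 314 CPM. The fibroblast-like cells held Ror1 at 535 and 376 CPM, Ror2 at 230 and 185 CPM and Wnt5b at 61.4 and 30.5 CPM. In basal oral epithelium-like cells, Wnt5a had 670 UMIs (141 CPM) in the 349 shared and 25 UMIs in the 293 unshared cells, Ror2 was at 194 and 59.0 CPM and Vangl1 at 42.7 and 18.7 CPM, while Ryk was at 155 and 144 CPM. Wnt5b in endothelium-like cells was at 17.1 and 34.4 CPM. In the unshared set the follicle-like level of Wnt5a was thus below the 247 CPM of the Alx1 and Pax3 facial mesenchyme-like cells. The papilla-, ameloblast- and odontoblast- or osteoblast-like cells were nearly all in the shared set.

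The matrix-secreting classes at P1 were then compared with a neighbouring class of the same compartment, to ask how the 9 genes differ between cells that deposit enamel, dentin or bone and other cells of the tooth. Of the 321 mandibular odontoblast- or osteoblast-like cells, 176 formed a cluster with bone rather than dentin genes, described below. In ameloblast-like against dental epithelium-like cells, 8 genes could be compared in each jaw. Past the fold, 1 was higher and 3 were lower in maxillary molars, and 0 were higher and 4 lower in mandibular molars. Of all genes compared, 8.25% were higher and 22.7% lower in the maxilla, and 5.13% and 17.6% in the mandible. The classes held 104 ameloblast-like and 164 dental epithelium-like cells in maxillary molars, and 495 and 197 in mandibular molars.

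Ror2 had 8 UMIs in the maxillary and 83 UMIs in the mandibular ameloblast-like cells, against 297 and 479 UMIs in dental epithelium-like cells. Its log2 ratio was -4.66 (interval -5.88 to -3.66) in maxillary and -3.86 (-4.22 to -3.52) in mandibular molars. Wnt5a had a log2 ratio of -3.43 (-4.91 to -2.25) and -4.88 (-5.39 to -4.41). In the enamel-secreting class, Wnt5a thus did not exceed its erythroid-like level in either jaw and Ror2 was at 5.44 CPM in the maxilla and 12.4 CPM in the mandible. The dental epithelium-like class was uneven in the mandible, where clusters of 76 and 34 of its 197 cells held 259 and 190 of its 456 Wnt5a UMIs and the cluster of 87 cells held 7. Wnt5b was lower too, with log2 ratios of -3.84 (-9.21 to -1.20) and -3.10 (-4.89 to -1.60), from only 1 and 5 UMIs in ameloblast-like cells.

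The other receptors did not share this. Ror1 stayed within the fold at -0.18 (-0.35 to 0.00) and -0.22 (-0.33 to -0.12). Ryk was at 0.37 and 0.62 and Ptk7 at 0.52 and 0.41 on the log2 scale. Vangl2 was past the fold in maxillary molars at 1.26 (1.04 to 1.49) and not in mandibular molars at 0.61 (0.47 to 0.75). Without the mandibular dental epithelium-like cluster of 87 cells described next, whose best-scoring marker list was that of the ameloblast lineage, the mandibular value was 1.03 (0.83 to 1.25) and past the fold, that of Ror2 -4.69 and that of Ror1 -0.63. Vangl1 was past the fold in the mandible only, at -1.44 (-2.65 to -0.24), from 13 UMIs against 14 UMIs; the maxillary value was -0.35 (-1.80 to 0.98). The median gene was lower in ameloblast-like cells by a log2 ratio of -0.36 in maxillary and -0.31 in mandibular molars. Relative to it, Vangl2 was at 1.62 and 0.92 and Ror2 at -4.30 and -3.55, and the mandibular Vangl1 was at -1.13 with an interval that included 0.

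Single clusters within these classes did not all show this order. In P1 mandibular molars, a dental epithelium-like cluster of 76 cells with Shh at 1186 CPM and Amelx at 116 CPM held Ror2 at 321 CPM and Wnt5a at 309 CPM. Another of 87 cells with Amelx at 2700.0 CPM held Ror2 at 20.1 CPM and Wnt5a at 5.62 CPM, and its best-scoring marker list was that of the ameloblast lineage. The third dental epithelium-like cluster, of 34 cells and so below the minimum of 50 set for classes, held Ror2 at 319 CPM, Wnt5a at 328 CPM and Vangl2 at 152 CPM, close to the Shh-high cluster. In the 4 ameloblast-like clusters, with Amelx between 29778 and 85674 CPM, Ror2 lay between 7.31 and 24.0 CPM and Wnt5a between 3.18 and 9.58 CPM, ranges that include the cluster of 87 cells. Vangl2 was at 143 CPM in the Shh-high cluster, 254 CPM in the cluster with intermediate Amelx and 259 to 369 CPM in the ameloblast-like clusters. The maxillary dental epithelium-like class was uneven as well, with clusters of 41 and 123 cells. They held Vangl2 at 55.8 and 146 CPM, beside 289 CPM in the maxillary ameloblast-like cells. Ror1 was at 103 and 409 CPM in them, Ror2 at 107 and 150 CPM and Wnt5a at 23.0 and 52.2 CPM. In P1 maxillary molars, an unnamed epithelial cluster of 129 cells with Amelx at 7592 CPM held Ror2 at 32.2 CPM and Vangl2 at 268 CPM. Clusters and genes come from the same cells, so these values describe the clusters and test nothing.

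The size of these ratios depended on how cells were filtered in maxillary molars. Across 13 settings the maxillary log2 ratio of Ror2 ranged from -5.79 to -1.11, the weakest with doublets left in, and that of Wnt5a from -4.28 to -0.53 across 12 settings. In mandibular molars, the ranges were -4.71 to -3.43 for Ror2 and -8.48 to -3.25 for Wnt5a across 15 settings. The ratio of Wnt5b ranged from -4.02 to -0.38 in maxillary molars across 10 settings, so that it was not past the fold in all of them, and from -3.92 to -2.78 in mandibular molars across 13. Vangl2 ranged from 0.71 to 1.62 in maxillary and Vangl1 from -2.94 to -0.51 in mandibular molars, and neither was past the fold in all settings.

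**Figure D2:**
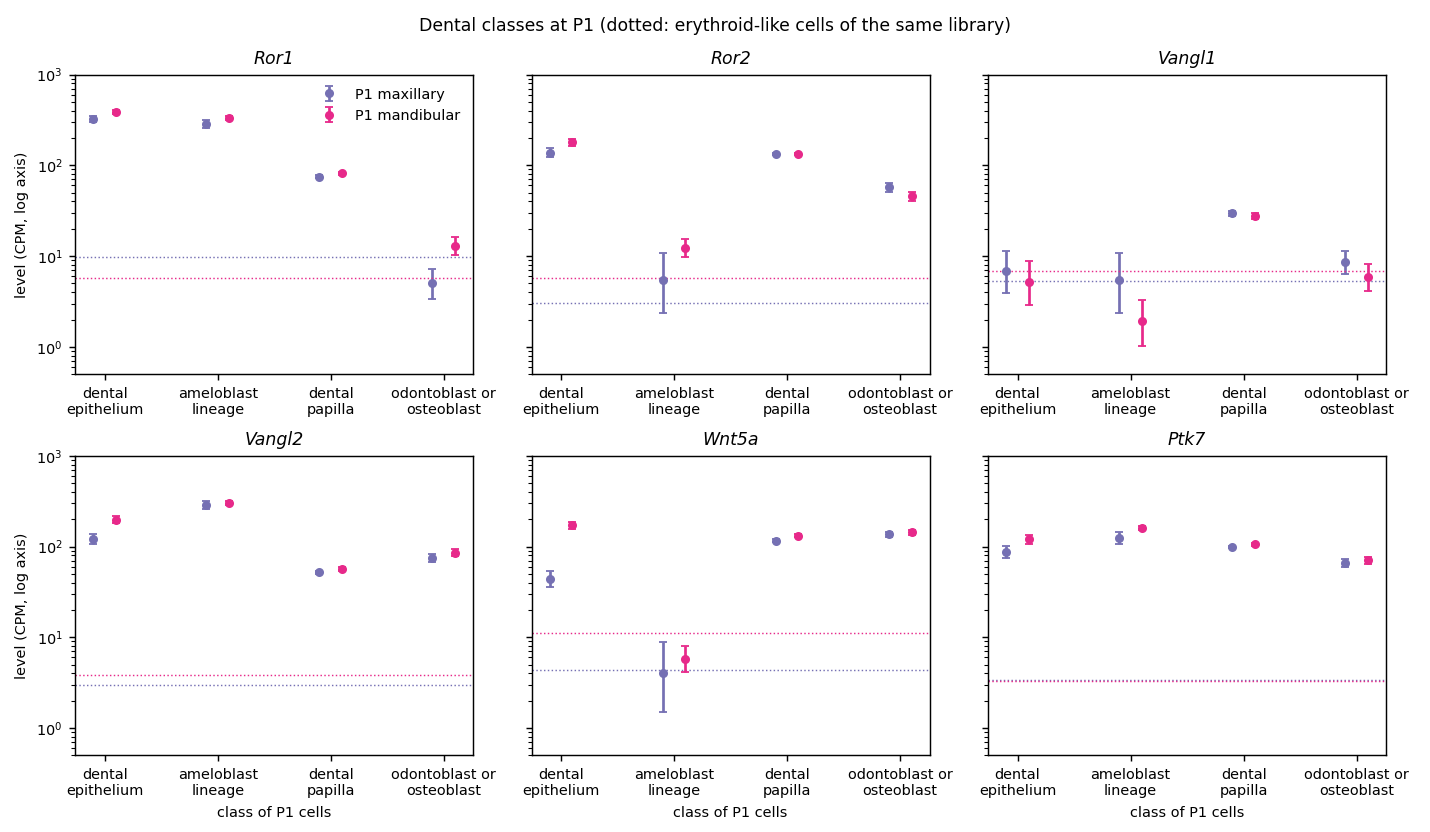
Levels of Ror1, Ror2, Vangl1, Vangl2, Wnt5a and Ptk7 at P1 in dental epithelium-like, ameloblast-like, papilla-like and odontoblast- or osteoblast-like cells, in CPM on a log axis, for maxillary and mandibular molars. Bars on the points are exact 95% Poisson intervals and dotted lines the erythroid-like level, which for Vangl1 is no measure of free RNA. Among these classes, Ror2 and Wnt5a are lowest in ameloblast-like cells of both jaws, and Ror1 in odontoblast- or osteoblast-like cells.

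In odontoblast- or osteoblast-like against papilla-like cells, all 9 genes could be compared. Past the fold, 0 were higher and 3 lower in maxillary molars, and 2 were higher and 3 lower in mandibular molars, where 6.66% and 6.7% of all genes were higher and 23.8% and 23.5% lower. Ror1, Ror2 and Vangl1 were the 3 lower genes in both jaws. Ror1 had a log2 ratio of -3.90 (-4.48 to -3.38) in maxillary and -2.66 (-3.00 to -2.34) in mandibular molars, Vangl1 of -1.78 (-2.22 to -1.37) and -2.22 (-2.74 to -1.75), and Ror2 of -1.22 (-1.38 to -1.06) and -1.55 (-1.73 to -1.38). The median gene was at -0.40 and -0.41, relative to which Ror2 was at -0.82 in maxillary molars and so within the fold, and at -1.14 in mandibular molars. Relative to the median gene, 3 genes were higher (Wnt5b, Wnt11 and Ryk) and 2 lower (Ror1 and Vangl1) in maxillary molars, and 4 were higher (Wnt5b, Wnt11, Ryk and Vangl2) and 3 lower in mandibular molars, where 11.5% and 11.4% of all genes were higher and 16% and 15.2% lower.

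The ligands were not lower in these cells. Wnt5b was higher past the fold in mandibular molars at 1.24 (1.03 to 1.44), with 0.75 (0.54 to 0.96) in maxillary molars. Wnt11 was past it in mandibular molars at 1.41 (0.98 to 1.83), from 72 UMIs against 137 UMIs, with 0.95 (0.40 to 1.46) in maxillary molars. Wnt5a was at 0.23 and 0.13, Ryk at 0.82 and 0.77, Vangl2 at 0.52 and 0.59 and Ptk7 at -0.58 and -0.59. Relative to the median gene, Wnt5b was at 1.15 and 1.65, Wnt11 at 1.35 and 1.82, Ryk at 1.22 and 1.19 and Vangl2 at 0.92 and 1.00. Ameloblast-like cells thus held little Ror2 beside a Ror1 level within the fold of their neighbours. In odontoblast- or osteoblast-like cells the lowest ratio was that of Ror1, while Ror2 was measured at 57.2 and 45.7 CPM against 3.01 and 5.72 CPM in erythroid-like cells.

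The odontoblast- or osteoblast-like class of the P1 mandibular molars held 2 clusters. That of 145 cells, with Dspp at 2381 CPM and Dmp1 at 1112 CPM, had Ror1 at 11.6 CPM, Ror2 at 25.8 CPM and Wnt5b at 71.1 CPM. That of 176 cells, with Dspp at 10.3 CPM and the bone matrix gene Ibsp at 667 CPM, had Ror1 at 14.3 CPM, Ror2 at 64.4 CPM and Wnt5b at 24.9 CPM. Low Ror1 was therefore measured in the cluster with the dentin gene and in the cluster with the bone gene. Among papilla-like clusters, Ror1 ranged from 17.1 to 170 CPM in mandibular and from 43.6 to 209 CPM in maxillary molars, and the cluster with the highest Ror1 had the highest Wnt5b, at 41.6 and 55.8 CPM, in both jaws. Over all settings, the Ror1 ratio ranged from -6.98 to -2.30 in maxillary and from -4.93 to -1.51 in mandibular molars. The maxillary ratio of Ror2 ranged from -1.99 to -0.82 and the mandibular ratio of Wnt5b from 0.98 to 1.65.

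Epithelium and mesenchyme were compared within each library. Vangl2 was higher in epithelium past the fold in all 4 libraries, with 38.9, 51.0, 136 and 174 CPM against 19.4, 15.9, 44.5 and 44.5 CPM. Its log2 ratios were 1.00 (0.84 to 1.16), 1.68 (1.39 to 1.96), 1.61 (1.53 to 1.68) and 1.97 (1.90 to 2.04). The value of E15.5 maxillary molars lay at the limit, with 0.97 to 1.06 across settings, and was not past it in all of them. That of Ror2 in the same library ranged from -1.24 to -0.91. Of all genes, 12.7%, 12.2%, 11.7% and 12.5% were higher in epithelium and 18.4%, 13.3%, 21.4% and 21.5% lower. Lower past the fold were Wnt5a at -3.28 (-3.50 to -3.07) and Ror2 at -1.21 (-1.30 to -1.11), both in E15.5 maxillary molars, and among the sets of P1 maxillary molars both were lower in the unshared set. The other values of Wnt5a were -0.38, -0.996 (-1.08 to -0.91) and -0.35, and those of Ror2 were 0.42, -0.35 and -0.17. The ligand Wnt5a was at 15.3 CPM in the epithelium of E15.5 maxillary molars and at 51.4, 72.2 and 90.0 CPM in that of the others. The 94 epithelial cells of E15.5 mandibular molars included 28 dental epithelium-like and 25 basal oral epithelium-like cells, too few for levels of their own.

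The remaining 6 genes were within the fold in all 4 libraries. Ryk was above 0 in each, at 0.52, 0.17, 0.35 and 0.44, with an interval that reached 0 in E15.5 mandibular molars. Ror1 was at -0.21, 0.41, 0.51 and 0.78, Vangl1 at 0.97, -0.74, -0.27 and -0.35, and Ptk7 at -0.33, 0.13, 0.06 and 0.44. The ligands Wnt5b, from -0.83 to -0.32, and Wnt11, from -0.55 to -0.31, were below 0 in each, the latter with an interval that included 0 in E15.5 mandibular molars, at -0.98 to 0.29 from 23 epithelial UMIs. The P1 maxillary sets differed here. The shared set had 2 genes higher in epithelium and 1 lower, where 11.1% and 22.6% of all genes were, and the unshared set 2 higher and 3 lower, where 12.6% and 14.5% were. Wnt5a was at -1.88 (-2.20 to -1.59) and Ror2 at -1.38 (-1.64 to -1.13) in the unshared set. In the shared set, Ror1 was higher in epithelium at 1.13 (1.08 to 1.19) and in the unshared set lower at -1.27 (-1.43 to -1.13), with 124 and 465 CPM in their mesenchyme. Wnt5b was lower at -1.21 (-1.42 to -1.0) in the shared and higher at 1.15 (0.73 to 1.55) in the unshared set. Vangl2 was higher in both, at 1.57 and 1.14. Class composition and depth differ between the sets, and their part in the result was not tested.

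**Figure D3:**
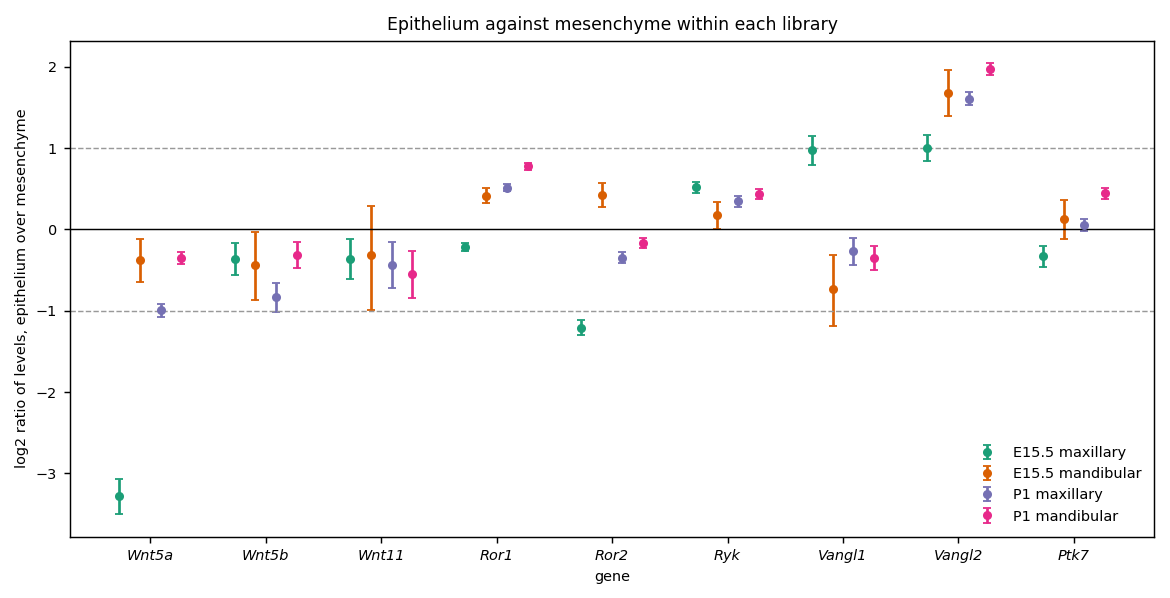
Log2 ratio of epithelium to mesenchyme for each of the 9 genes in the 4 libraries, with exact 95% intervals. Dashed lines mark 2-fold. Vangl2 lies at or beyond the upper line in all 4 libraries, and Wnt5a in E15.5 maxillary molars lies farthest below the lower line, at -3.28.

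P1 was compared with E15.5 within each class and jaw, to follow the genes from the bell stage to matrix secretion. Over 28 classes and jaws, 192 values of the 9 genes could be compared, of which 24 (12.5%) were higher and 11 (5.73%) lower at P1 past the fold. Without the erythroid-like cells, 19 of 180 (10.6%) were higher and 11 (6.11%) lower, against 6.13% and 6.07% of the values of all genes in the same classes. By set of the P1 maxillary cells, 10 of 59 (16.9%) were higher and 6 (10.2%) lower in the shared set, where 7.12% and 6.66% of the values of all genes were, and 5 of 81 (6.17%) were higher and 5 lower in the unshared set, where 3.5% and 3.35% were. In mandibular erythroid-like cells 95.6% of all genes were higher and 0.0465% lower at P1, with a median gene at 3.07, and 5 of the 9 genes were among the higher ones.

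In papilla-like cells of the maxillary molars, 2 of the 9 genes were higher and 2 lower, where 10.7% and 10.5% of all genes were. Vangl2 was at 20.4 CPM at E15.5, against 52.0 CPM in P1 cells (log2 ratio 1.35, interval 1.02 to 1.70), and Ptk7 at 48.3 and 98.9 CPM (1.03, 0.82 to 1.26). Ror1 was at 326 and 75.0 CPM (-2.12, -2.22 to -2.02) and Wnt11 at 22.6 and 3.58 CPM (-2.65, -3.05 to -2.25). Wnt5a at -0.59, Ror2 at -0.62, Ryk at -0.55 and Vangl1 at 0.83 were within the fold, and the interval of Wnt5b, -0.41 to 0.21, included 0. Of these P1 cells 99.1% carried a shared barcode. The value of Ptk7 ranged down to 0.46 with at least 2000 UMIs for each cell and that of Vangl2 to 0.66 without the filters on cells, so only Ror1 and Wnt11 kept a ratio beyond 2-fold in every setting run.

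In follicle-like cells, Ptk7 was higher at P1 in both jaws, at 1.30 (1.15 to 1.45) in maxillary and 1.04 (0.70 to 1.38) in mandibular molars, the latter from 84 cells at P1. Ror1 was lower past the fold in the maxilla at -1.04 (-1.14 to -0.94), with -0.61 (-0.86 to -0.36) in the mandible. These were 1 gene higher and 1 lower in maxillary molars, where 9.53% and 6.02% of all genes were, and 1 higher in mandibular molars, where 6.48% were higher and 7.99% lower. Only 58.0% of the maxillary follicle-like cells carried a shared barcode. In the unshared set Ptk7 was at 0.09 (-0.36 to 0.50) and Ror1 at -0.35, so that the maxillary values rest on the shared set, with 1.44 and -1.21. Across settings the maxillary value of Ror1 ranged from -1.21 to -0.00812. The mandibular value of Ptk7 ranged from 0.62 to 1.29 across settings.

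Among epithelial classes, basal oral epithelium-like cells of the maxillary molars had 3 genes higher and 0 lower, where 8.33% and 6.88% of all genes were. Wnt5a was higher at 3.63 (3.25 to 4.03), Ror2 at 1.19 (1.03 to 1.35) and Wnt5b at 1.13 (0.72 to 1.56). The unshared set gave 1.81 (1.07 to 2.50) for Wnt5a, and values of the opposite sign for Ror2 at -0.40 and for Wnt5b at -1.51. Ror1 was lower there at -1.03 (-1.26 to -0.81), so that this set had 1 gene higher and 1 lower, where 3.44% and 2.75% of all genes were. The clusters of this class were uneven: in P1 maxillary molars Wnt5a ranged from 14.8 to 254 CPM among its 5 clusters. Dental epithelium-like cells of the maxilla had Vangl2 higher at 1.14 (0.76 to 1.54) and Vangl1 lower at -1.33 (-2.37 to -0.33), where 7.69% and 8.08% of all genes were. Across settings these ranged from 0.39 to 1.29 and from -1.44 to -0.77, so that neither was past the fold in all. Gland-like epithelium had Wnt5a higher, with 5 UMIs at E15.5 and 19 UMIs at P1 (3.12 and 24.9 CPM), and Ror2 and Vangl1 lower at -1.65 and -1.28, where 9.09% and 7.01% were. The value of Vangl1 ranged from -1.73 to -0.70.

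For the epithelium as a whole, Vangl2 was higher at P1 at 1.80 (1.66 to 1.95) in maxillary and 1.77 (1.52 to 2.04) in mandibular molars. In the mesenchyme it was at 1.20 (1.10 to 1.30) in the maxilla and at 44.5 against 15.9 CPM in the mandible. Wnt5a was higher in the maxillary epithelium at 2.24 (2.01 to 2.47), with 0.81 (0.55 to 1.08) in the mandibular. Of all genes in the epithelium, 9.77% and 7.7% were higher and 11% and 9.91% lower, and in the mesenchyme 9.58% and 11.6% were higher and 6.78% and 5.52% lower. In the unshared set Vangl2 was at 0.26 (-0.08 to 0.58) in the maxillary epithelium and 0.12 (-0.08 to 0.32) in the mesenchyme, and Wnt5a in the epithelium at 1.62 (1.25 to 1.98). By set, Vangl1 was lower past the fold in the unshared epithelium, and Wnt11 in the shared epithelium and the shared mesenchyme. The epithelium of P1 holds 104 and 495 ameloblast-like cells, a class without a counterpart of 50 cells at E15.5, and class composition cannot be told apart from stage in these sums. Ror1 in the mesenchyme was at -1.27 in maxillary and -0.82 in mandibular molars, and at 0.06 (0.02 to 0.10) in the unshared set. Across settings, the maxillary values of Vangl2 ranged from 0.26 to 1.92 in the epithelium and from 0.11 to 1.35 in the mesenchyme, and that of Ror1 in the mesenchyme from -1.84 to 0.06.

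Away from the tooth, tendon-like cells had Wnt11 higher in both jaws, at 1.44 (0.78 to 2.08) and 1.89 (0.75 to 3.21), where 6.51% and 6.03% of all genes were. Wnt11 was also higher in the mandibular Alx1 and Pax3 facial mesenchyme-like cells, with 4 UMIs at E15.5 and 55 UMIs at P1 (4.10 and 19.8 CPM), at 2.27 (0.83 to 4.20) and from 2.09 to 2.36 across settings, where 9.05% of all genes were higher and 5.51% lower. In the maxillary cells of this class Wnt11 was within the fold, with 41.2 CPM at E15.5 and a lower level of 29.4 CPM at P1. In tendon-like cells Wnt5b was lower in the mandible at -2.27 (-2.84 to -1.74), with -0.90 (-1.59 to -0.28) in the maxilla, where 8.01% and 7.07% of all genes were lower. In the unshared set, which leaves out 8 of the 400 maxillary cells at P1, Wnt5b was lower past the fold in the maxilla too. Across settings, Wnt11 ranged from 0.66 to 2.79 in the maxilla and Wnt5b from -2.45 to -0.56 in the mandible. Muscle progenitor-like cells of the mandible had Ror1 higher at 1.97 (1.74 to 2.19), where 6.46% of all genes were higher and 3.82% lower. Fibroblast-like cells of the maxilla had Wnt5b higher at 1.39 (1.09 to 1.70), where 3.93% of all genes were higher and 3.58% lower. Wnt5b was at 1.56 in the shared set of this class and within the fold at 0.55 (0.00346 to 1.07) in the unshared set, in which Wnt5a was higher at 1.25 and 2.57% of all genes were higher. In the shared set Wnt11 was lower past the fold, where 4.62% of all genes were higher and 5.79% lower. Pericyte-like cells had Wnt5b and Vangl2 higher in the maxilla, at 1.23 (0.54 to 1.95) and 1.37 (0.54 to 2.23), and Vangl1 higher in the mandible at 1.29 (0.42 to 2.19), where 4.76% and 7.0% of all genes were higher and 3.16% and 4.58% lower. In the unshared set, with 10 and 9 UMIs at P1, the maxillary values were 0.72 and 1.10, with intervals that included 0, and that of Wnt5b ranged from 0.38 to 1.40 across settings. Each of the 3 genes was within the fold in pericyte-like cells of the other jaw. Mandibular Wnt5b had 37 of 853291 UMIs at E15.5 and 18 of 570435 UMIs at P1, the opposite direction. Mandibular Vangl2, with 22 and 24 UMIs, had the same direction as in the maxilla. Endothelium-like cells of the mandible had Wnt5b higher at 2.39 (1.54 to 3.30) and Ror1 at 1.44 (0.60 to 2.31), the latter at 15.4 CPM beside the 5.72 CPM of erythroid-like cells, where 6.68% of all genes were higher and 3.38% lower. In the maxilla 0 of 7 genes were past the fold, where 2.48% of all genes were higher and 2.14% lower, with Wnt5b at 0.61 (0.07 to 1.15) and Ror1 at -0.73 (-1.56 to 0.06). By set, Wnt5b was at 0.26 and 1.27 and Ror1 at -1.08 and -0.06 in shared and unshared cells. The mandibular value of Ror1 ranged from -0.0245 to 1.92 across settings. Differentiating muscle-like cells of the maxilla had Ror1 with 40 UMIs in 59 cells at E15.5 (45.9 CPM) and no UMI in 68 cells at P1, a log2 ratio of -1.70 or lower against a floor of 3 counts at P1, where 6.43% of all genes were higher and 13.4% lower. It was at 0.14 with doublets left in and 0.82 with at least 2000 UMIs per cell. Schwann-lineage cells of the mandible had Wnt5b at 28.8 CPM at E15.5 and no UMI at P1, a log2 ratio of -2.80 or lower against a floor of 3 counts at P1. Vangl1 at -1.43 and Ptk7 at -1.85 were lower there too, where 4.98% of all genes were higher and 6.14% lower, with Ptk7 between -2.29 and -0.49 across settings. In Schwann-lineage cells of the maxilla 0 of 6 genes were past the fold, where 2.45% of all genes were higher and 1.5% lower.

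**Figure D4:**
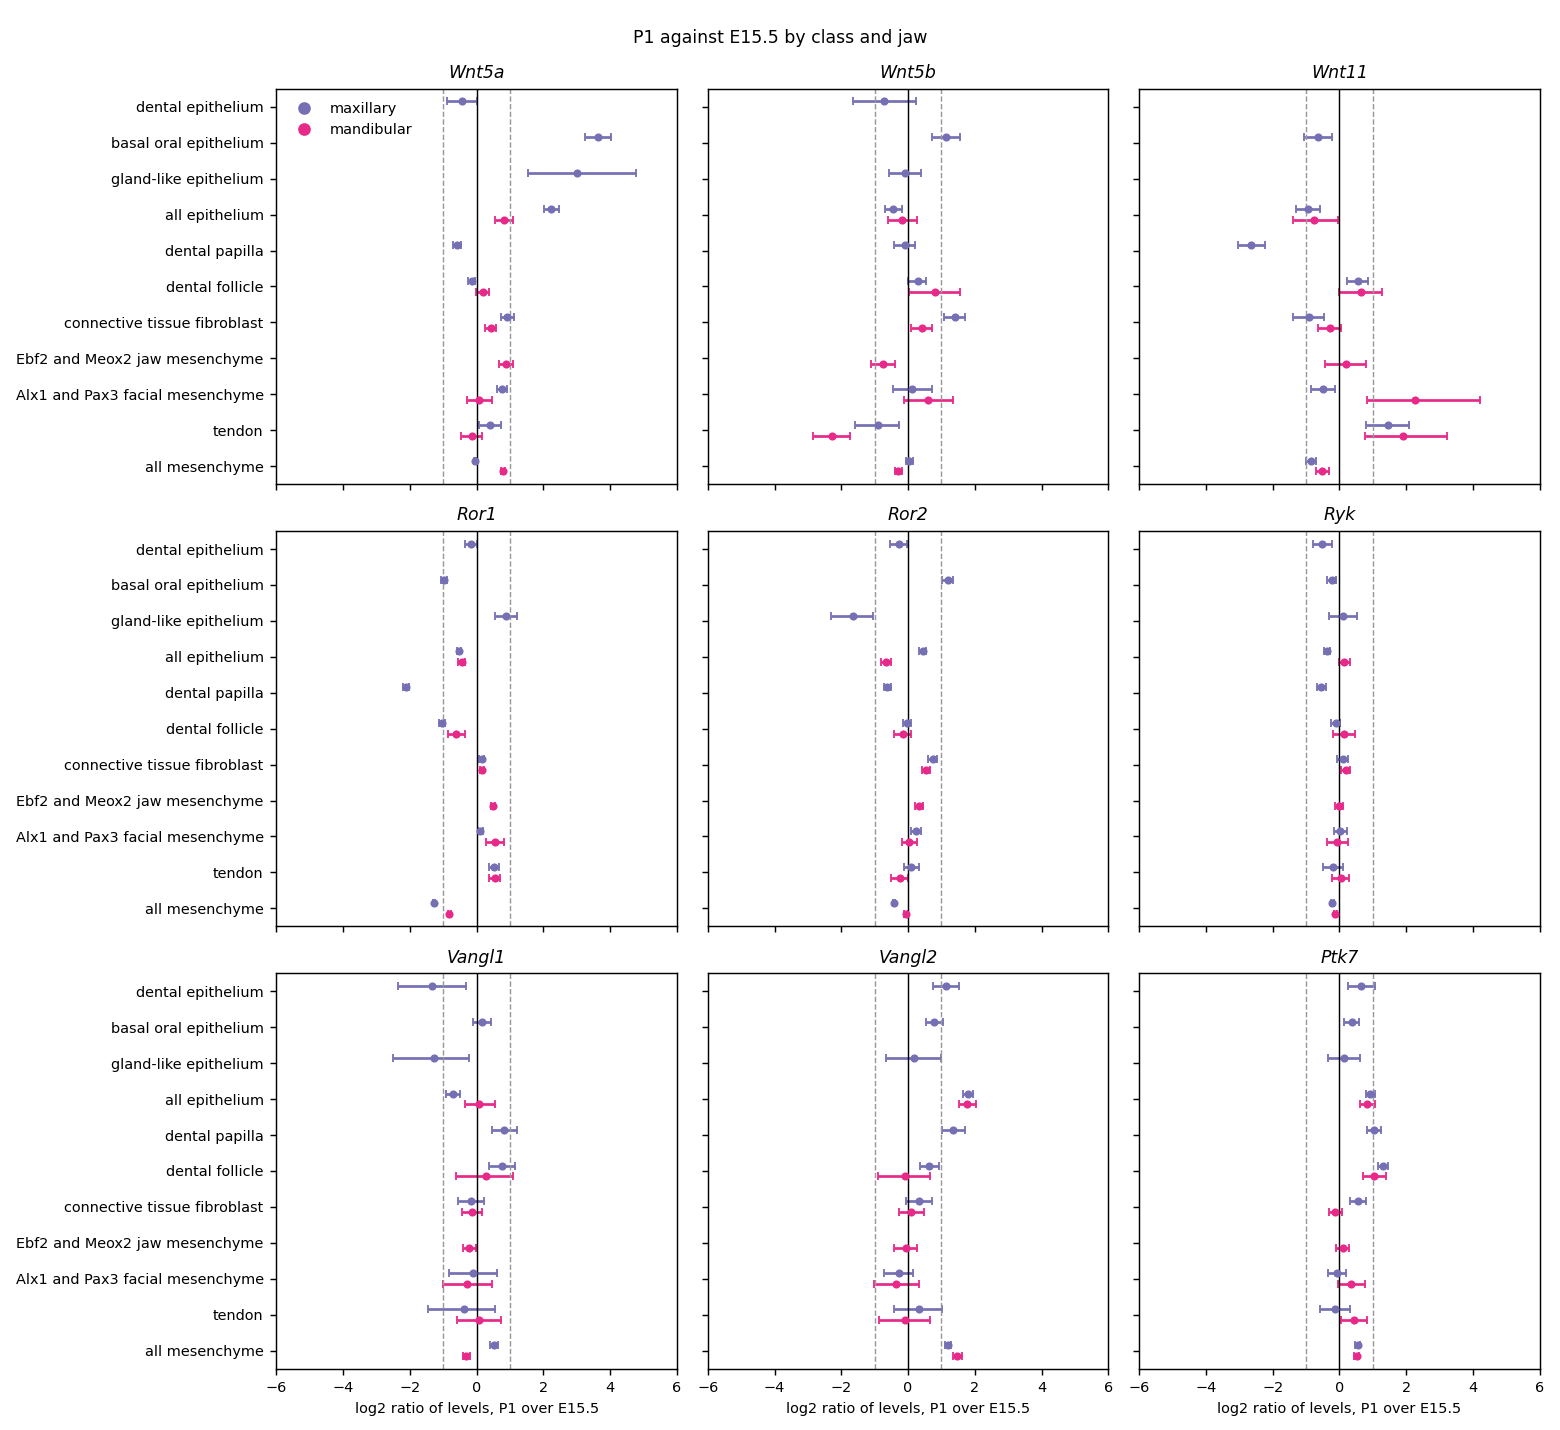
Log2 ratio of P1 to E15.5 for the 9 genes in 11 classes, in maxillary and mandibular molars, with exact 95% intervals. Dashed lines mark 2-fold. Ror1 and Wnt11 in papilla-like cells lie below the lower line at -2.12 and -2.65, and Vangl2 and Ptk7 above the upper line at 1.35 and 1.03.

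Maxillary and mandibular molars were compared within each class and stage. Over 29 classes and stages, 204 values could be compared, of which 19 were higher and 15 lower in the maxillary library, or 14 (7.33%) and 13 (6.81%) of 191 without the erythroid-like cells. In the same classes 4.32% and 4.36% of the values of all genes were. At P1 the sets of the maxillary cells differed. In the unshared set, 6 of 74 (8.11%) were higher and 15 (20.3%) lower in the maxilla, where 6.22% and 7.17% of the values of all genes were, and in the shared set 2 of 75 (2.67%) and 4 (5.33%), where 2.92% and 3.72% were. In erythroid-like cells, 80.7% of all genes were higher in the maxilla at E15.5 and 0.147% in the mandible, and 0.339% and 70.7% at P1.

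In papilla-like cells at P1, where 2845 maxillary and 2215 mandibular cells were present and 99.1% of the maxillary cells carried a barcode in common with the mandibular library, 0 of the 9 genes were past the fold, against 1.86% and 2.77% of all genes. The largest differences were Wnt11 at -0.28 (-0.63 to 0.08) and Wnt5b at 0.25 (0.10 to 0.40), and Ror2 was at -0.01 (-0.07 to 0.05). In follicle-like cells 0 were past the fold at either stage, where 2.57% and 2.27% of all genes were at E15.5 and 7.61% and 4.58% at P1. In the unshared set of P1, follicle-like cells had 4 genes lower and 0 higher in the maxilla, where 6.82% and 6.52% of all genes were. They were Wnt5a at -1.18 (-1.49 to -0.88), Ptk7 at -1.36 (-1.86 to -0.87), Wnt11 at -1.36 (-2.40 to -0.40) and Vangl1 at -1.56 (-3.18 to -0.16), the last from 6 and 18 UMIs. Ameloblast-like cells had Ror2 at -1.18 (-2.44 to -0.14) from 8 maxillary UMIs, and Vangl1 at 1.49 (0.01 to 2.87) from 8 and 13 UMIs, where 0.645% of all genes were higher in the maxilla and 2.71% in the mandible. Odontoblast- or osteoblast-like cells had Ror1 at -1.37 (-2.04 to -0.75), with a maxillary level of 5.01 CPM between those of erythroid-like (9.71 CPM) and macrophage-like cells (0.626 CPM), where 0.984% and 2.77% were. Across settings, the ameloblast-like value of Ror2 ranged from -1.45 to 2.59 and that of Vangl1 from 0.89 to 2.13, and the value of Ror1 in odontoblast- or osteoblast-like cells from -3.81 to -0.37.

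Dental epithelium-like cells at P1 had Wnt5a at -1.96 (-2.29 to -1.64), with 44.0 CPM in maxillary and 171 CPM in mandibular molars, where 4.28% of all genes were higher in the maxilla and 6.07% in the mandible. The mandibular class contained clusters of 76 and 34 cells with 309 and 328 CPM and one of 87 cells with 5.62 CPM, and the ratio ranged from -2.85, without the latter, to -0.42 across settings. Ror2 was within the fold with that cluster and at -1.22 (-1.44 to -1.01) without it. At E15.5, the epithelium as a whole had Wnt5a at -1.75 and Ror2 at -1.04, from 94 mandibular cells, where 3.02% and 4.37% of all genes were higher in the maxilla and the mandible, and the mesenchyme Wnt5a at 1.15 (1.09 to 1.22), where 5.63% and 3.52% were. This mesenchyme held 1259 follicle-like and 261 papilla-like cells of the 8395 kept in the maxilla, and 206 follicle-like cells of the 6059 kept and no papilla-like class in the mandible. Within follicle-like cells Wnt5a was at 280 and 343 CPM, a log2 ratio of -0.29 (-0.40 to -0.18), and in the summed mesenchyme class composition and jaw cannot be told apart. The same holds for the summed epithelium of E15.5. Of its 705 maxillary cells 385 were basal oral epithelium-like and 75 dental epithelium-like, and of its 94 mandibular cells 25 and 28. At P1, suprabasal oral epithelium-like cells had Ror1 at -1.49 (-1.74 to -1.24), Ror2 at -1.85, Vangl1 at -1.42 and Ptk7 at -1.14, where 2.7% and 13.3% of all genes were. Of these 90 maxillary cells 37.8% carried a shared barcode. In the 56 others, Ror1 was at -2.78 (-3.46 to -2.17), Ror2 at -1.48 and Vangl1, with 1 UMI, at -3.41, Vangl2 was lower from 4 UMIs at -1.46 (-3.39 to -0.03), and Ptk7 was within the fold at -0.44, where 5.29% of all genes were higher in the maxilla and 10.4% in the mandible. Across settings Vangl1 reached -0.92 and Ror1 -0.93. At E15.5, the epithelial values ranged from -2.62 to -0.71 for Wnt5a and from -1.11 to -0.66 for Ror2. Basal oral epithelium-like cells at P1 had 0 genes past the fold, where 4.5% and 2.17% of all genes were, but 4 lower in the maxilla in the unshared set, where 6.26% and 7.86% were. They were Wnt5a at -2.66 (-3.30 to -2.09), Ror2 at -1.64 (-2.13 to -1.19), Vangl1 at -1.28 (-2.22 to -0.47) and Wnt5b at -2.50 (-4.80 to -0.91), the last from 3 UMIs.

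In Alx1 and Pax3 facial mesenchyme-like cells, 9.16% and 8.64% of all genes were higher in the maxilla and the mandible at E15.5, and 6.28% and 9.24% at P1. Of the 9 genes, 2 were higher and 1 lower in the maxilla at E15.5, and 2 higher and 2 lower at P1. Ror1 was higher in the maxilla at 1.92 (1.68 to 2.17) at E15.5, with 624 against 223 CPM at P1, Vangl1 was lower at -1.42 and -1.24, and Wnt11 was at 3.33 (1.95 to 5.22) and 0.57. At P1, Wnt5a was higher, with 246 against 88.2 CPM, and Wnt5b lower at -1.27 (-1.81 to -0.75). Of the 1306 maxillary cells of this class at P1, 1299 were in the unshared set, so its P1 values rest on that set. The median cell of the class held 2483 UMIs in the maxilla and 10449 UMIs in the mandible at P1. Across settings the P1 values of Vangl1 and Wnt5b reached -0.64 and -0.91. Alx1 itself was at 112 and 226 CPM in the maxillary and mandibular cells of this class at E15.5 and at 327 and 105 CPM at P1. The clusters so named need not be the same tissue in both jaws.

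Among the remaining classes, Ror1 in differentiating muscle-like cells of E15.5 had the largest ratio of the 9 genes between jaws. It had 40 UMIs in 59 maxillary and 2 UMIs in 197 mandibular cells (45.9 and 0.665 CPM), a log2 ratio of 6.11 (4.16 to 9.20) that ranged from 1.39 to 6.41 across settings, and Ror2 was at 2.86 (1.71 to 4.11), where 6.98% and 3.74% of all genes were higher in the maxilla and the mandible. At P1, in this class, Ror1 had no UMI in 68 maxillary and 16 UMIs in 167 mandibular cells, too few for a call. Tendon-like cells had Wnt11 higher in the maxilla at both stages, with 10.7 against 3.08 CPM at E15.5 (1.79, 0.72 to 3.07, from 60 and 8 UMIs) and 29.0 against 11.4 CPM at P1 (interval of the log2 ratio 0.61 to 2.07), where 10.3% and 12.1% of all genes were higher in the maxilla. The P1 value ranged from 0.56 to 1.47 across settings, and that of Ror2 in these cells, 1.13 (0.85 to 1.41), from 0.75 to 1.26. The tendon-like classes of the jaws differed in their own markers, as given below.

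Wnt5b was higher in the maxilla in endothelium-like cells of E15.5 at 1.72 (0.90 to 2.63) and in fibroblast-like cells of P1 at 1.25 (0.99 to 1.52), where 1.76% and 4.44% of all genes were, and lower in Schwann-lineage cells of E15.5 at -1.62 (-2.51 to -0.80), where 2.18% were. The value of fibroblast-like cells was 0.41 (-0.11 to 0.91) in the unshared set. At P1, Schwann-lineage cells had Vangl1 higher at 1.71 (0.43 to 3.26), from 32 and 6 UMIs, and Ptk7 at 1.36 (0.39 to 2.46), where 5.73% were, with Ptk7 from 0.38 to 1.72 across settings. Ror1 in endothelium-like and Vangl1 in pericyte-like cells of P1 were lower in the maxilla at -1.20 (-2.06 to -0.36) and -1.05 (-1.88 to -0.23), where 4.32% and 3.04% of all genes were, and ranged from -3.33 to 0.02 and from -1.89 to -0.89. Ror1 was at -1.55 (-2.64 to -0.55) in the shared and within the fold at -0.53 (-1.78 to 0.57) in the unshared set, and Vangl1 within the fold at -0.89 (-1.80 to -0.02) in the shared and at -1.54 (-3.26 to -0.16) in the unshared set, so that each call rests on 1 set.

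Of 56 further genes of these branches in 4 lists, all were in the matrices. In the PCP core, 13, 12, 13 and 13 of 14 genes could be compared between epithelium and mesenchyme. Past the fold, 6, 6, 5 and 4 were higher in epithelium and 2, 1, 0 and 0 lower, beside 12.7%, 12.2%, 11.7% and 12.5% of all genes higher and 18.4%, 13.3%, 21.4% and 21.5% lower. Celsr1, a polarity cadherin, was higher by log2 ratios of 4.70, 4.78, 3.30 and 3.26. Celsr2, at 2.76, 3.08, 4.11 and 4.13, and the Frizzled receptor genes Fzd3 and Fzd6 were higher in all 4 libraries too. Prickle2, encoding a cytoplasmic PCP protein, was lower at E15.5 at -2.96 and -1.79, as was Prickle1 in the maxilla at -2.58. The median of the list was 0.75, 1.26, 0.27 and 0.62. In the calcium branch, 1, 1, 0 and 0 of 11 genes were higher and 5, 5, 6 and 4 lower in epithelium, with medians of -0.72, -1.02, -1.01 and -0.70. The median over all genes was -0.07, 0.04, -0.07 and -0.06.

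In ameloblast-like against dental epithelium-like cells, 2 of 41 listed genes were higher and 12 lower in maxillary molars, and 3 of 47 higher and 10 lower in mandibular molars, counts that stand beside 8.25% higher and 22.7% lower of all genes in the maxilla and 5.13% and 17.6% in the mandible. The higher genes in both jaws were Celsr1, at 1.43 (1.23 to 1.63) and 1.05 (0.91 to 1.19), and Prickle2, at 1.95 (1.69 to 2.23) and 1.51 (1.34 to 1.68). Ankrd6, which encodes the Diversin homologue of the PCP core, was lower at -5.38 (-6.60 to -4.40) and -3.88 (-4.26 to -3.52), and Gpc6, a glypican gene, at -4.32 and -2.55. Plcb1, a phospholipase gene of the calcium branch, was at -2.62 (-4.98 to -0.91) and -5.22. Ameloblast-like cells thus had Vangl2, Celsr1 and Prickle2 beside a low Ankrd6. These listed genes were named after their values had been seen.

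In odontoblast- or osteoblast-like against papilla-like cells the direction of Prickle2 and Ankrd6 was the opposite. Prickle2 was lower at -5.52 (-6.21 to -4.91) and -5.01 (-5.60 to -4.48), and Ankrd6 higher at 1.74 (1.68 to 1.81) and 1.67 (1.60 to 1.74). Celsr1 was higher at 3.42 (3.23 to 3.61) and 3.03 (2.86 to 3.20), with 99.5 and 121 CPM. Mapk10, encoding a Jun kinase, had 165 and 66.0 CPM in papilla-like cells against 0.864 CPM in the maxillary and no UMI in the mandibular class. The secreted Wnt antagonist genes Sfrp1, at -3.74 and -2.90, and Sfrp2, at -4.69 and -4.34, were lower, as was Wls, needed for secretion of Wnt ligands, at -1.73 and -1.60. In all, 5 of 54 listed genes were higher and 14 lower in maxillary molars, and 4 of 52 and 10 in mandibular molars, beside 6.66% and 23.8% of all genes in the maxilla and 6.7% and 23.5% in the mandible.

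Between stages, papilla-like cells of the maxilla had 6 of 54 listed genes higher and 7 lower, with a median of -0.18, where 10.7% and 10.5% of all genes were. Ankrd6 was higher at 3.37 (2.96 to 3.81), Mapk10 at 4.83 (4.23 to 5.50) and Fzd7 at 1.89 (1.53 to 2.29), and Sfrp2 was at 730.5 CPM in E15.5 and 31.2 CPM in P1 cells, a log2 ratio of -4.55 (-4.65 to -4.45). Between jaws at P1, Mapk10 was the 1 gene of 54 listed that was past the fold in papilla-like cells, at 1.33, where 1.86% of all genes were higher in the maxilla and 2.77% in the mandible. Past the fold in the same direction in both jaws of a class, P1 against E15.5, Nfatc2 in endothelium-like cells was higher at 1.41 and 1.77 and Camk2d in differentiating muscle-like cells at 1.21 and 2.19. Sfrp2 in follicle-like cells was lower at -2.33 and -4.34, Rock1 in differentiating muscle-like cells at -1.90 and -1.55, Mapk10 in fibroblast-like cells at -1.08 and -1.46, and Gpc4 in endothelium-like cells at -1.31 and -1.04. By set of the maxillary cells, shared and then unshared, these values were 1.59 and 0.80 for Nfatc2, -2.55 and -1.52 for Sfrp2, -1.76 and 0.15 for Mapk10 and -2.35 and -0.06 for Gpc4. In differentiating muscle-like cells the median gene was at -0.32 in maxillary and -0.61 in mandibular molars, and 13.4% and 24.4% of all genes were lower and 6.43% and 7.91% higher. Relative to the median gene Rock1 was at -1.58 and -0.93, the latter within the fold. Between jaws at both stages, the largest differences were those of Sfrp1 in tendon-like cells, at 3.05 and 6.18, Sfrp2 in Schwann-lineage cells, at 2.88 and 3.05, and Gpc6 in differentiating muscle-like cells, at 2.90 and 2.85. The tendon-like classes differed in their own markers, whose summed level at E15.5 was 780 CPM in the maxilla and 3758 CPM in the mandible, and in P1 libraries 565 and 9932 CPM, with Tnmd highest in 3 libraries and Kera in P1 maxillary molars. The clusters so named need not be the same tissue in both jaws, and the part of this in the difference of Sfrp1 was not tested. In Alx1 and Pax3 facial mesenchyme-like cells, Fzd4 at 2.80 and 2.35 and Prickle1 at 2.34 and 1.68 were higher in the maxilla and Ankrd6 at -2.08 and -2.93 in the mandible. Mapk10 in fibroblast-like cells was lower in the maxilla at -1.42 and -1.04, and so in endothelium-like cells were Prickle2 at -1.35 and -1.03 and Gpc6 at -1.02 and -2.13. At P1 the shared and unshared sets gave -1.72 and 0.19 for Mapk10, -0.88 and -1.50 for Prickle2 and -2.40 and -1.58 for Gpc6.

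The genes most like each member were sought over 72 classes of the 4 libraries by the correlation of log2(CPM + 1) among 13719 genes, with the 9 themselves left out as matches. The points share libraries and cells, and the values are a description. The pattern of Ror1 was most like that of Gli2 (Pearson r = 0.901), encoding a Hedgehog transcription factor, followed by Tead3 at 0.877 and Setbp1 at 0.869. Ror2 was most like Dipk1b at 0.881, Smarca1 at 0.868 and Gli2 at 0.864. Ptk7 was most like Gli3 at 0.936, Ttc23 at 0.909 and Tmeff1 at 0.905. Wnt5a was most like Cpxm1 at 0.856, Tmem45a at 0.847 and Nfatc4 at 0.833. Ryk was most like Yap1 at 0.938, Cuedc1 at 0.934 and Pard3 at 0.933, with far lower rank correlations (rho = 0.646, 0.629 and 0.516), and Vangl2 most like D630045J12Rik at 0.901, Prkci at 0.865 and Gmcl1 at 0.864. The best matches of the remaining members were weaker. They were Farp1 at 0.813, Ptprg at 0.791 and Zfp618 at 0.788 for Wnt5b, Boc at 0.788, Lrig3 at 0.774 and Thrb at 0.773 for Wnt11, and Lamb2 at 0.764, Ephb4 at 0.763 and Cald1 at 0.752 for Vangl1. Among the 9 genes themselves, Wnt5a and its receptor gene Ror2 had r = 0.871 and rho = 0.883, so that Ror2 was more like Wnt5a than Cpxm1 was. Ryk and Ptk7 had r = 0.915 and rho = 0.683, and Wnt5a and Vangl1 had r = 0.348 and rho = 0.251. Over the matches named here for the 9 genes, rho lay between 0.516 and 0.894.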

How the data were processed

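Libraries were prepared by the authors with a 10x Genomics 3′ kit, and reads were turned into UMI counts per gene and barcode with Cell Ranger on mm10, as the submitters' processing notes name them. The deposited matrices are raw counts of 32285 genes, and whether intronic reads were counted is not given in the sources used here. Gene positions are from the GRCm38 annotation and promoters from RefSeq GRCm38.p6.

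Barcodes with at least 1000 UMIs were kept, and barcodes of the P1 maxillary library were left out of the P1 mandibular library. Cells over 3 median absolute deviations in mitochondrial share (950, 518, 1229 and 1321) and the highest Scrublet scores, 0.8% for each 1000 barcodes (728, 334, 2051 and 641), were removed with scanpy 1.11.5. Each library was clustered (Leiden, resolution 1, 40 components, 2000 variable genes) without 118 Wnt pathway genes. Clusters were named from marker lists, by thresholds chosen once clusters were known. The members and lists were chosen with earlier results of these data known. For stage and for jaw, pathway genes past the fold in both jaws or stages of a class with at least 20 CPM were ranked. The 5 with the largest smaller change are named in each direction, as are those needed to state a small count. This rule does not cover every pathway gene named for epithelium against mesenchyme, for the secretory classes or for papilla-like cells between stages. The ratio procedure was run on simulated counts, drawn with Poisson error from the summed profile of the E15.5 maxillary library. Those counts hold no differences between cells or libraries, so the run bears on counting error only. Alternatives changed the filters on cells, the treatment of shared barcodes, the clustering resolution, the weight and depth of cells, the scaling, the fold and the count minimum. Where an alternative changed the filters, the treatment of shared barcodes or the resolution, clusters were formed and named anew, so a class need not hold the same cells. The sets of shared and unshared P1 maxillary barcodes, the class without 1 mandibular dental epithelium-like cluster, and the secretory classes' ratios centred on the median gene, were added after the data had been seen.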

Additional observations from a re-analysis of the deposited data

Results flagged for a closer look

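Wnt5a and Ryk differed between the jaws in opposite directions at the 2 stages in erythroid-like cells, a class used as a rough gauge of free RNA, and the difference between stages was not tested. The log2 ratio of maxillary to mandibular molars for Wnt5a was 2.30 at E15.5, against -1.36 at P1. For Ryk these were 2.21 and -1.35. The median gene of this class was at 1.85 at E15.5 and -1.51 at P1. Relative to the median gene, Wnt5a was at 0.46 and 0.15 and Ryk at 0.36 and 0.16, which is the same sign at both stages.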

How the results depend on the processing

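No paired analysis was possible because each stage and jaw had 1 library, and for the same reason no replicate could be left out. The count of 23 of 36 gene and library pairs led by a mesenchymal class, among named classes, ranged from 17 to 26. The 4 values higher in epithelium ranged from 3 to 5. The 2 values lower in epithelium became 1 with the barcodes of the rule alone, 5 with shared barcodes left out of both P1 libraries, 4 with the mean CPM of each cell, 5 with cells thinned to 1000 UMIs, 4 with the erythroid-like level subtracted and 5 with the unshared set alone. The 24 values higher at P1 became 42 with the barcodes of the rule alone, 41 with doublets left in, 14 with shared barcodes left out of both, 11 with thinned cells and 37 at a fold of 1.5. The 11 lower became 17 at 2000 UMIs, 20 at a fold of 1.5 and 7 at a minimum of 50 UMIs. The 19 values higher in the maxilla became 39 with the barcodes of the rule alone, 43 with doublets left in, 7 with thinned cells and 12 at a minimum of 50 UMIs. The 15 lower became 7 with the barcodes of the rule alone, 8 with thinned cells, 28 at a fold of 1.5 and 8 with the shared set alone. The cause of these changes was not tested.

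Of 100 single values past the fold, 43 stayed beyond 2-fold in every setting that could form them, while 3 reversed with shared barcodes left out, 3 with the unshared set alone and 9 when centred on the median gene. In maxillary basal oral epithelium-like cells between stages, Wnt5b was at -1.51 in the unshared set, and Ror2 at -1.06 with shared barcodes left out and -0.40 in the unshared set. In maxillary mesenchyme Ror1 was at 0.0273 and 0.0621 in these settings. In maxillary differentiating muscle-like cells Ror1 was at 0.14 with doublets left in and 0.82 at 2000 UMIs, and in mandibular endothelium-like cells at -0.0245 with the mean CPM of each cell. Centring gave -1.91 for Ror1, -0.86 for Ror2, -0.11 for Ryk and -0.93 for Ptk7 between stages in mandibular erythroid-like cells, and -0.62 for Ror1, -0.37 for Ror2 and -0.0704 for Ptk7 between jaws at E15.5. Between jaws at P1, Ror2 in ameloblast-like cells was at 2.59 with the barcodes of the rule alone, 2.11 with doublets left in and 1.81 with shared barcodes left out, and Ror1 in endothelium-like cells at 0.0225 with shared barcodes kept in both. All 104 maxillary ameloblast-like cells of the main setting carried a shared barcode. With these barcodes left out, the class so named held none of them, so this value compares other cells. In erythroid-like cells Wnt5a was at 0.39 with the rule alone, 0.59 at 2000 UMIs and 0.15 when centred, and Ryk at 0.40, 0.73 and 0.16 and at 0.42 with the limit on detected genes.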
